A study of Mus musculus with 38 samples.

Results

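On mouse chromosome 8, the 89 Mb from 40 Mb to near its end (chr8:40000001-129000000, GRCm38) gave more input reads in IκBα-KO than in IκBα-WT embryonic stem cells. The 4 modifications with read counts were tested only at regions called in all 6 libraries. That input difference and the covered length of the calls were taken into account. Few of these regions carried more of a modification in KO cells, and regions called in KO libraries alone were not tested. H3K4me1 was higher at 32 and lower at 417 of 1465 tested regions, against 3.2% and 2.04% of all regions of the genome, and the higher ones include Il34/Sf3b3/Cog4, Slc35e1/Med26 and Itgb1. H3K27ac was higher at 22 and lower at 334 of 701 (genome 7.85% and 5.68%), with the largest gain over Klf2 and Eps15l1. H3K27me3 was higher at 2 and lower at 71 of 811 (0.962% and 1.03%), and H3K9me3 at 0 and 76 of 984 (0.293% and 0.76%). H3K4me3 was higher at 79 and lower at 52 of 700 (9.82% and 9.76%). With the input difference left out of the model 610 H3K4me1 and 354 H3K27ac regions were higher. With the covered length left out instead, most lower calls did not hold, and more regions were higher than lower for all 4 modifications. For H3K27me3 these were 166 higher and 30 lower. The sequence that calls covered, by contrast, was larger in KO cells for all 5 modifications, from 1.3-fold for H3K9me3 to 1.60-fold for H3K27me3.

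The members are all calls of the 30 chromatin immunoprecipitation (ChIP-seq) lists within the stretch, 60640 of 1426821 calls. The stretch was selected on the input reads of these lists, because KO input exceeds WT input there, so the input values below describe that choice and were not tested. It was read in 3 zones, the proximal (chr8:40000001-70000000), the middle (chr8:70000001-107000000) and the distal (chr8:107000001-129000000), and set against the first 40 Mb of the chromosome (reference). The middle zone was kept apart because there the WT input also differed between experiments. The stretch holds 762 protein-coding genes, with 4.63 per Mb in the proximal, 11.1 in the middle and 9.64 in the distal zone.

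All cells were of the mouse embryonic stem cell line ES-E14TG2a, grown in Serum/LIF and taken at 0 h of differentiation. IκBα-KO (KO) cells carried a CRISPR/Cas9 knockout of Nfkbia, which encodes the NF-κB inhibitor IκBα, made with 2 guide RNAs against exon 1, and IκBα-WT (WT) cells were clones that had received scrambled guide RNAs. There were 3 WT and 3 KO libraries for each of H3K4me3, H3K27me3, H3K9me3, H3K27ac and H3K4me1, which the study describes as separate single-cell clones, and 8 inputs, 1 per genotype and experiment, with 1 pair shared by H3K27ac and H3K4me1. Because 1 input serves all 3 replicates of a genotype, the input difference has no replicate spread. From the inputs alone, whether it belongs to 1 clone or to all 3 cannot be told apart. The ChIP reads are per library. For H3K4me1, reads per covered kb of the stretch over the reference were 0.37, 0.38 and 0.37 (log2) in KO and 0.06, 0.04 and 0.05 in WT libraries.

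Each H3K4me1 list held 34736676 to 35951506 ChIP reads in its calls, and each H3K27ac list 22943009 to 28339107. H3K27me3 libraries held 8910890 to 10938375 and H3K9me3 libraries 8444548 to 11899361. H3K4me3 lists hold 21834 to 26804 calls and no reads. H3K27ac was called in all 6 libraries at the promoters of 7 of 8 embryonic stem cell markers, and H3K4me3 at 4 of 8. H3K27me3 was called in all 6 at 4 of 4 primitive endoderm and 4 of 5 fibroblast markers, but also at the stem cell marker Esrrb, and H3K27ac at 2 of the 4 primitive endoderm markers, Gata6 and Pdgfra. Of the 5 fibroblast markers, Thy1 had both H3K4me3 and H3K27ac calls in all 6 libraries. H3K27ac was also called at Col1a1 (3 WT, 2 KO), Pdgfrb (0 WT, 3 KO) and Col3a1 (1 WT, 0 KO). The promoter of Nfkbia, which lies on another chromosome, had H3K27ac and H3K4me1 calls in all 6 libraries. H3K4me3 was called there in 3 WT and 2 KO libraries, with a mean cover of 637 and 315 bp. A promoter mark does not measure the IκBα protein, so these files do not check the knockout. A single antibody is named in the labels for H3K4me1 and H3K27ac alike, whereas the methods list a separate one for H3K27ac.

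H3K4me3 marks active and poised promoters, and H3K4me1 together with H3K27ac marks active enhancers. H3K27me3 is placed by Polycomb repressive complex 2 over silent developmental genes, and H3K9me3 marks heterochromatin, transposons and clusters of zinc-finger genes. Input is sonicated chromatin sequenced without antibody. It follows how many copies of a locus the cells hold and how easily that chromatin is fragmented, and peak callers use it as the background. Why the input differs between these genotypes was not tested.

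The promoters of 4 genes are given because the results below turn on them. Zfp42 (Rex1), a zinc-finger factor that marks naïve pluripotency, and Klf2, a Krüppel-like factor of the naïve network, are the pluripotency genes that the study follows in this stretch. Rfwd3 and Atxn1l are among the genes with the largest H3K4me3 gain and loss. Each is the 250 bases before the RefSeq transcription start (GRCm38.p6), 5′ to 3′ on the gene's strand, and each overlaps an H3K4me3 region. Capitals mark matches on either strand to the octamer ATTTGCAT, which Oct4-class factors bind, to the GC box GGGGCGGGG and to the CCAAT box.
Zfp42, chr8:43307010-43307259, minus strand: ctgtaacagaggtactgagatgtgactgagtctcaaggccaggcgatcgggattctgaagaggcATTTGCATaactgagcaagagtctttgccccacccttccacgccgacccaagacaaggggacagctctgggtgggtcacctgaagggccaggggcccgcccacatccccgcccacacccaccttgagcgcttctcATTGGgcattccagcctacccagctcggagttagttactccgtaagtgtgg
Klf2, chr8:72318812-72319061, plus strand: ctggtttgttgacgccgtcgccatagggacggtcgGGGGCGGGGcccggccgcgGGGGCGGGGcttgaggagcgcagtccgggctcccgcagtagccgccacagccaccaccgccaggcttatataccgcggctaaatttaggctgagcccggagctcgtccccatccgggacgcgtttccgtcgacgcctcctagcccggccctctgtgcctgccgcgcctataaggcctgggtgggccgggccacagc
Rfwd3, chr8:111300223-111300472, minus strand: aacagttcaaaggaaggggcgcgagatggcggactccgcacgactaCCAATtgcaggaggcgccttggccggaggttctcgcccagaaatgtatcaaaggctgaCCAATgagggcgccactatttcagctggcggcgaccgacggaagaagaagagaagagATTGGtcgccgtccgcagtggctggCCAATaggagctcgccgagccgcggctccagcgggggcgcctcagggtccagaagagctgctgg
Atxn1l, chr8:109737781-109738030, minus strand: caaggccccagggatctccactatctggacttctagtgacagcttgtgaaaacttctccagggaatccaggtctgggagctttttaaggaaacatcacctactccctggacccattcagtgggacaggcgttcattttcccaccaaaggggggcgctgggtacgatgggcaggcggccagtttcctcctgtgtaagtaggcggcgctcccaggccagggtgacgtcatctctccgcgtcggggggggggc

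Counted from the 5′ end of each window, Zfp42 holds the octamer at position 65 and a CCAAT box on the opposite strand at 200, Klf2 holds GC boxes at 36 and 55, and Rfwd3 holds 4 CCAAT boxes. Atxn1l holds none of these letters. Of 32851 RefSeq mouse promoter windows of this length, 1.6% hold the octamer, 10.4% the GC box and 33.8% the CCAAT box, against 1.54%, 11.6% and 36.4% of the 1172 windows in the stretch.

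The input difference had 2 patterns. In the experiment that H3K27ac and H3K4me1 share, KO input exceeded WT input in all 19 windows of up to 5 Mb, read over regions called in all 6 libraries and against the other autosomes, by 0.46 to 0.54 on the log2 scale over H3K4me1 calls and by 0.47 to 0.56 over H3K27ac calls. Over all H3K27ac calls of the stretch the WT lists gave 31.4 to 31.5 input reads per kb and the KO lists 42.3 to 42.4, while in the reference the WT lists gave 31.3 to 31.4 and the KO lists 29.7 to 29.9. In the H3K27me3 experiment the difference was 0.35 to 0.59 in the proximal and 0.51 to 0.62 in the distal windows, but 0.06 to 0.09 in the middle. In the H3K9me3 experiment it was 0.38 to 0.56 in the proximal windows and 0.61 to 0.72 in the distal ones, but 0.07 to 0.30 in the middle.

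The middle zone of these 2 experiments differed in the WT input. H3K27me3 WT lists gave 22.8 to 22.9 input reads per kb in the middle, against 16.2 to 16.3 in the proximal and 16.9 to 17.0 in the distal zone. KO lists gave 26.7 to 27.04 in the middle, 24.8 to 25.3 in the proximal and 27.2 to 27.4 in the distal zone. Middle-zone WT input was thus raised by 0.42 (log2) over that of the other autosomes and KO input by 0.49. In the H3K4me1 experiment WT input of the middle zone was at 0.01. Across windows of the other autosomes the input difference had an SD of 0.03 for H3K27me3, H3K27ac and H3K4me1 and of 0.08 for H3K9me3.

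Where calls were dense enough to read the edges, some were narrow and others were not. Over H3K4me1 calls the input difference was −0.03 in the last Mb before 40 Mb and 0.31 in the first Mb after it. Over H3K27me3 calls it dropped from 0.46 to 0.07 at the start of the middle zone and rose from 0.13 to 0.51 at its end, while over H3K4me1 calls it stayed near 0.5 across both. Over H3K9me3 calls it dropped from 0.38 to 0.02 at the start of the middle zone. At the end of that zone it was already 0.33 in the last Mb and 0.55 in the first Mb after it. Over the same calls it was 0.46 in the last Mb of the stretch and 0.41 in the first Mb beyond it.

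**Figure D1:**
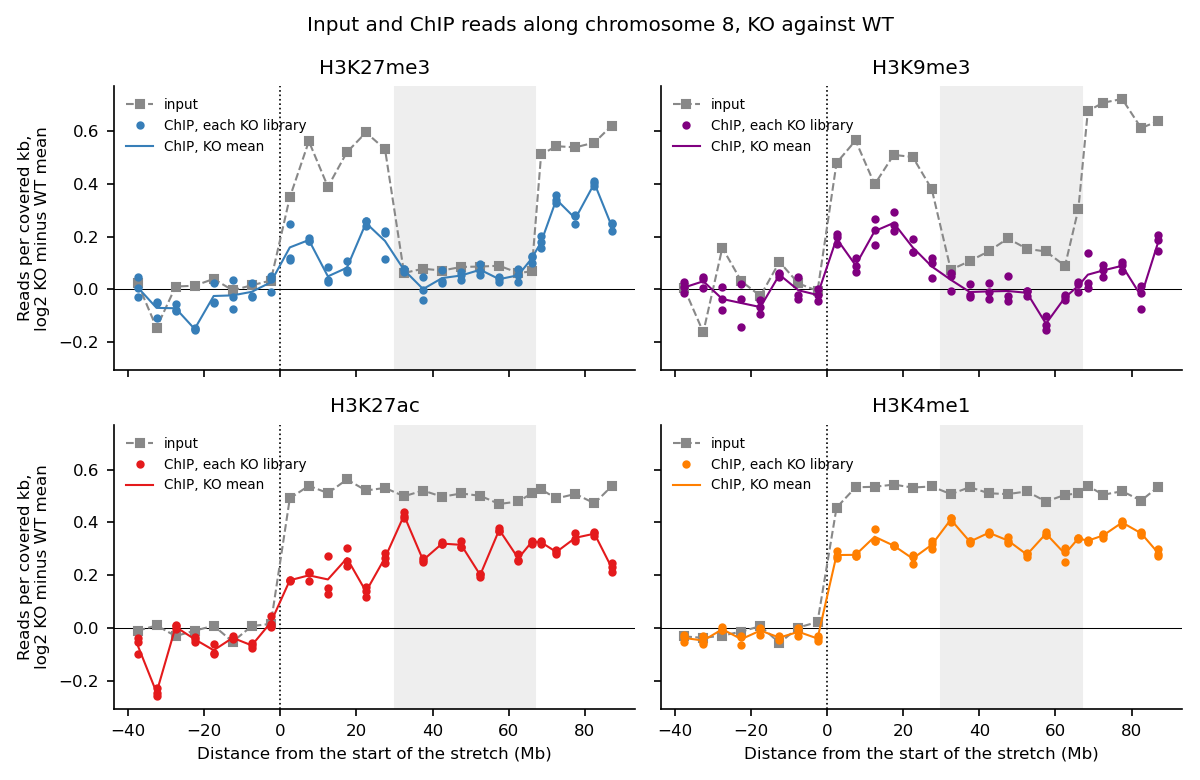
The log2 difference of KO and WT reads per covered kb along chromosome 8 in windows of up to 5 Mb over regions called in all 6 libraries, for ChIP and for input, with 1 panel per modification that has read counts and with the middle zone shaded. Over H3K27ac and H3K4me1 calls input lies between 0.46 and 0.56 throughout the stretch, and over H3K27me3 and H3K9me3 calls it falls in the shaded zone.

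ChIP density rose less than input. Per covered kb and relative to the reference, H3K4me1 ChIP reads in KO cells were higher by 0.27 ± 0.01 (log2, SD pooled over 3 WT and 3 KO libraries) in the proximal, 0.33 ± 0.01 in the middle and 0.33 ± 0.01 in the distal zone, where input was higher by 0.53, 0.52 and 0.52. H3K27ac was higher by 0.24 ± 0.01, 0.32 ± 0.01 and 0.31 ± 0.01, where input was higher by 0.53, 0.50 and 0.49. For both modifications the proximal zone had the smallest ChIP difference, below the other zones by more than the SD. None of the 19 windows had a ChIP difference above its input difference.

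H3K27me3 density changed by zone. It was −0.05 ± 0.02 in the proximal zone against an input difference of 0.46, and 0.07 ± 0.03 in the middle against 0.07. In the distal zone it was 0.27 ± 0.01 against 0.52. ChIP exceeded input in 2 of 19 windows, both in the middle zone. H3K9me3 density over all calls hardly moved, with 0.03 ± 0.05, 0.01 ± 0.03 and 0.02 ± 0.03 in the 3 zones, whereas input was higher by 0.41, 0.08 and 0.58. Over the regions called in all 6 libraries, proximal windows differed by 0.05 to 0.25 in H3K27me3 and by 0.09 to 0.25 in H3K9me3, still below input in each. H3K4me3 lists give fold enrichment, which is already over input, and its median differed by 0.09 ± 0.07, −0.01 ± 0.10 and −0.13 ± 0.07. Among windows of the other autosomes, the SD of the ChIP difference was 0.03 for H3K4me1, 0.06 for H3K27ac, 0.05 for H3K27me3 and 0.04 for H3K9me3.

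**Figure D2:**
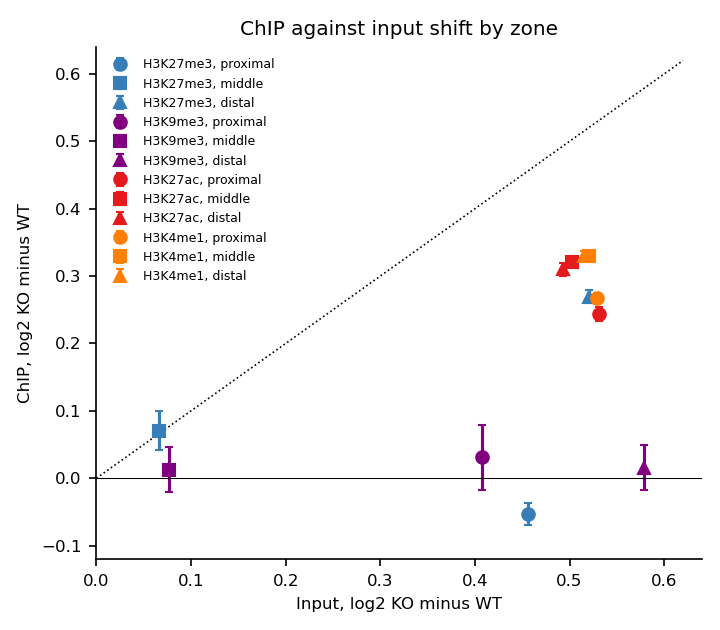
The ChIP difference (vertical axis) against the input difference (horizontal axis) of KO and WT cells for 4 modifications in the 3 zones, both as log2 reads per covered kb relative to the first 40 Mb. Bars give the SD pooled over 3 WT and 3 KO libraries and the dotted line marks equal differences, on which H3K27me3 of the middle zone lies while the other points lie below.

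These densities are taken over what each library called, and KO calls were wider. H3K27me3 calls of the proximal zone covered 1.04, 1.3 and 1.26 Mb in the WT and 3.57, 3.01 and 3.62 Mb in the KO libraries, a 2.84-fold difference of the means. In the distal zone they covered 4.23, 5.15 and 5.01 Mb in WT and 10.0, 9.84 and 9.73 Mb in KO libraries, 2.06-fold. In the middle zone the difference was 1.14-fold, and in the reference 1.05-fold. WT and KO libraries did not overlap in any of the 3 zones.

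H3K9me3 cover followed the same zones, with 1.60-fold in the proximal, 0.99-fold in the middle and 1.80-fold in the distal zone against 0.88-fold in the reference. H3K27ac cover was 1.505-fold, 1.501-fold and 1.65-fold larger, and H3K4me1 cover 1.35-fold, 1.27-fold and 1.35-fold, with 1.04-fold and 0.93-fold in the reference. H3K4me3 cover was 1.34-fold, 1.34-fold and 1.36-fold larger, against 1.14-fold in the reference. All KO libraries covered more than all WT libraries in 19 of 19 windows for H3K27ac and H3K4me1, against 46.1% and 9.69% of the windows of other autosomes. This held in 17 windows for H3K4me3 (29.8%), in 15 for H3K27me3 (27.6%) and in 11 for H3K9me3 (0%, or 0 of 414). All KO libraries covered less in 2 windows of the stretch for H3K9me3, and in the 8 reference windows they did so in 7 for H3K4me1 and 6 for H3K9me3. Lower KO cover was common on the other autosomes too, in 212 of 413 windows for H3K4me1 and 288 of 414 for H3K9me3.

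**Figure D3:**
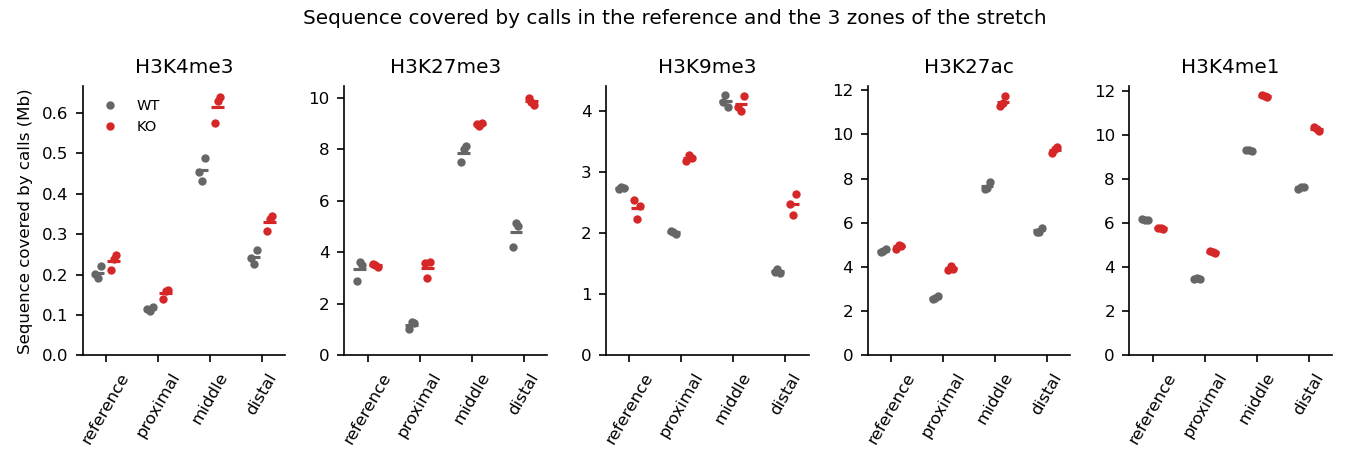
Sequence covered by calls (Mb, vertical axis) in the first 40 Mb and in the 3 zones of the stretch, with 1 point per library and a bar at the mean of 3 WT (grey) or 3 KO (red) libraries. H3K27me3 cover of the distal zone is 4.23 to 5.15 Mb in WT and 9.73 to 10.0 Mb in KO libraries, and H3K9me3 cover of the middle zone overlaps between the genotypes.

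Wider calls and denser calls both add reads. Summed over the stretch and relative to the reference, KO libraries had 1.84-fold the WT ChIP reads for H3K27ac, 1.75-fold for H3K4me1, 1.64-fold for H3K27me3 and 1.49-fold for H3K9me3. Of the regions called in all 6 libraries, 97.4% were longer in KO cells for H3K27ac, 90.4% for H3K4me1, 82.9% for H3K27me3 and 76.6% for H3K9me3. On the other autosomes these shares were 64.2%, 37.1%, 59.4% and 35.7%. The median H3K27ac region of the stretch was 1.61-fold longer in KO cells, against 1.06-fold on the other autosomes.

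Some regions were called in KO libraries alone. H3K27me3 regions called in 3 KO and 0 WT libraries made up 6.98% of the merged regions of the stretch (224 of 3209), against 1.8% of all merged regions of the genome. By zone this share was 12.7% in the proximal, 2.16% in the middle and 9.49% in the distal zone. For H3K4me1 it was 7.39% (191 of 2584) against 1.49%, for H3K4me3 5.71% (84 of 1471) against 3.12%, for H3K27ac 4.89% (80 of 1636) against 1.35%, and for H3K9me3 2.12% (55 of 2595) against 0.441%. Regions called in 3 WT and 0 KO libraries made up 0.561%, 0.426%, 0.34%, 3.24% and 2% of the stretch in that order, against 1.32%, 2.09%, 0.743%, 3.62% and 2.55% of the genome. With calls at FDR under 0.01 the balance turned toward WT for H3K27ac, with 50 regions restricted to KO and 56 to WT, and for H3K9me3, with 38 and 62.

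Among regions restricted to KO cells, the widest H3K9me3 regions over genes lay on Abce1/Anapc10 (a ribosome recycling factor and a subunit of the anaphase-promoting complex), on the vacuolar ATPase gene Atp6v1b2 and on Zfp42. They carried 28.5, 26.6 and 33.3 ChIP reads per kb beside 30.3, 27.6 and 32.3 input reads per kb. The widest H3K4me1 regions over genes lay on Tbc1d9, on Fto (an RNA demethylase), on Triml1 and on Vegfc (a lymphatic growth factor), with 50.7 to 53.8 ChIP and 36.7 to 43.3 input reads per kb. A wide H3K27me3 region appeared over Zfhx3, a homeodomain factor, with 27.2 ChIP and 23.5 input reads per kb. The H3K9me3 and H3K27me3 regions among these thus held about as many raw ChIP as raw input reads. Hand2, a cardiac and limb transcription factor, had H3K27ac calls of 3200, 3200 and 5033 bp in the WT libraries and none in the KO libraries.

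Regions called in all 6 libraries were then tested with 2 terms in the model, the covered length in each library and the input difference of the 5 Mb window, over the whole genome. Among merged regions of the stretch, 56.7% were tested in H3K4me1 (genome 64.5%) and 42.8% in H3K27ac (48.2%). The tested share was 25.3% in H3K27me3 (32.3%) and 37.9% in H3K9me3 (45.5%). The regions called in KO libraries alone, given above, could not enter the test. The test was the quasi-likelihood test of edgeR, and a region passed at an adjusted p (Benjamini-Hochberg) under 0.05. The input difference enters as a fixed value, the same for all 3 libraries of a genotype. The SE and adjusted p of a change beyond input therefore hold neither the error of that value nor any spread of input between clones. The counts given at the start are from this model. Leaving out 1 library brought the lower H3K27me3 regions from 71 to as few as 33 (without KO library 3) and the lower H3K9me3 regions from 76 to as few as 27 (without WT library 1). For H3K9me3 384 regions had an unadjusted p under 0.05. DESeq2 gave 0 higher and 136 lower of 775, against 188 and 375 of 18596 over the genome.

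The median log2 change over the tested regions was −0.23 for H3K4me1, −0.24 for H3K27ac, −0.11 for H3K27me3 and −0.24 for H3K9me3, while over all regions of the genome it was within 0.01 of 0. By zone H3K27me3 fell at 26 of 105 proximal, 3 of 408 middle and 42 of 298 distal regions. H3K9me3 fell at 13 of 352, 8 of 441 and 55 of 191, and its median was −0.30, −0.12 and −0.52. H3K27ac fell at 96 of 165, 136 of 319 and 101 of 215, and H3K4me1 at 31.2% of 343, 27.5% of 611 and 27.9% of 509. Regions that cross the edge of a zone were counted for the stretch and for no zone.

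Both directions depended on the 2 terms. Without the input term H3K4me1 was higher at 610 and lower at 1 region (backgrounds 4% and 1.64%), and H3K27ac at 354 and 6 (8.19% and 4.56%). H3K27me3 was higher at 151 and lower at 3 (1.7% and 1.04%), and H3K9me3 at 11 and 4 (0.16% and 0.278%). Without the length term the counts higher and lower were 527 and 50 for H3K4me1 (12.4% and 8.34%) and 342 and 31 for H3K27ac (12.1% and 10.9%). For H3K27me3 they were 166 and 30 (3.58% and 4.85%), and for H3K9me3 121 and 14 (2.97% and 3.68%). The length term reads a wider KO call as a lower density, and leaving it out reads the same width as more signal. Regions of like length, in which the shortest library covered at least 0.8 of the longest, carry little of either. In these H3K4me1 was higher at 32 and lower at 111 of 278 (backgrounds 15.5% and 12.4%, median −0.07), and H3K27ac at 8 and 29 of 65 (22.8% and 22.5%, median −0.07). H3K27me3 was higher at 6 and lower at 13 of 98 (11.3% and 12.7%, median −0.01), and H3K9me3 at 0 and 7 of 69 (4.81% and 6.71%, median −0.12).

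Because KO calls were longer, leaving out the length term favours higher calls. All 32 H3K4me1 regions higher in the model with both terms were also called higher without the length term, and so were 20 of the 22 H3K27ac regions but 0 of the 2 H3K27me3 regions. Of the lower regions, 185 of 417 for H3K4me1, 157 of 334 for H3K27ac, 19 of 71 for H3K27me3 and 14 of 76 for H3K9me3 were called higher once the length term was left out. Only 35, 28, 6 and 2 were called lower both ways. Among higher regions of like length, 25 of 25 for H3K4me1, 8 of 12 for H3K27ac and 1 of 1 for H3K27me3 passed in the like-length fit. Among lower ones 55 of 55, 13 of 13 and 4 of 4 passed, and 1 of 1 for H3K9me3.

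**Figure D4:**
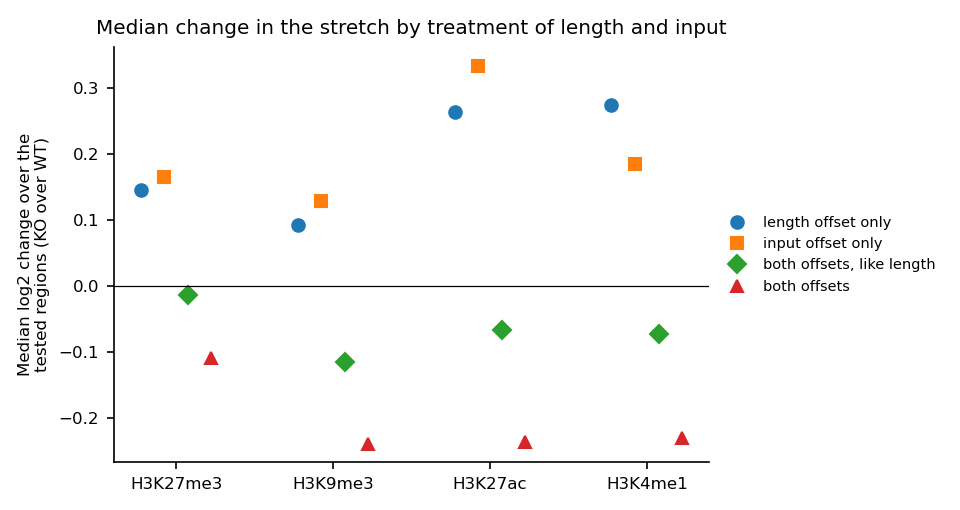
Median log2 change of KO over WT (vertical axis) over the tested regions of the stretch for 4 modifications, with the length term only, the input term only, both terms on regions of like length, and both terms on all regions. With 1 term the medians lie above 0, and with both terms they lie between −0.01 and −0.24.

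The strongest H3K27ac gain lay over Gm10282, Klf2 and Eps15l1 (chr8:72305201-72406400), a region of 101 kb that reaches from upstream of Klf2 through Eps15l1, an endocytic adaptor gene. It held 94.8, 101 and 103 reads per kb in the WT and 182, 183 and 156 in the KO libraries, while its input was 31.8 to 32.0 reads per kb in WT and 46.2 to 46.3 in KO cells. Covered length was alike, at 97.8, 96.0 and 100 kb in WT and 101 kb in each KO library. Beyond input, H3K27ac rose by 0.29 (SE 0.02, edgeR adjusted p = 9.7e-06), by 0.22 among regions of like length and by 0.21 without the length term.

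The next H3K27ac gains lay over Slc7a5, Car5a and Banp (an amino acid transporter, a mitochondrial carbonic anhydrase and a nuclear matrix protein) with a change of 0.24 and over Adad2 and Kcng4 with 0.23. Chtf8 and Utp4, which act in sister chromatid cohesion and ribosomal RNA processing, followed with 0.21. At Slc7a5/Car5a/Banp the WT libraries had 63.8, 68.2 and 72.0 and the KO libraries 118, 117 and 101 reads per kb. The Chtf8/Utp4 region, 23.6 kb long in each WT library, did not pass without the length term (0.10, edgeR adjusted p = 0.068).

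The H3K27ac losses with the largest estimates were at Tarbp1 (−1.301), Zfp821/Atxn1l (−1.11), Mon1b/Syce1l (−1.07) and Jph3 (−1.02). All 4 were short WT calls inside a wide KO call. At Tarbp1, a gene for an RNA methyltransferase, WT calls of 1000, 1600 and 1400 bp held 108, 89.4 and 120 reads per kb, and KO calls of 8400, 7800 and 8400 bp held 61.1, 69.4 and 54.8. Without the length term the 4 estimates were 1.203, 1.09, 1.02 and 1.00 in the opposite direction, so no direction of H3K27ac can be given for them.

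H3K4me1 gained most over Il34, Sf3b3 and Cog4 (chr8:110802601-110846000), which encode a cytokine, a splicing factor subunit and a Golgi tethering subunit. The WT libraries had 72.7, 72.1 and 72.2 and the KO libraries 120, 121 and 120 reads per kb over calls of 42.4 to 43.4 kb, and input was 36.0 to 36.2 in WT and 50.9 to 51.2 in KO cells. Beyond input the change was 0.28 (SE 0.02), with 0.27 among regions of like length. The replicate values lay within 1 read per kb of each other in WT cells, far from the KO values.

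A further 3 H3K4me1 gains were of like length. They lay over 2810004N23Rik/Gnpat (0.28), of which Gnpat starts ether lipid synthesis, over Slc35e1/Med26 (0.26), of which Med26 is a Mediator subunit, and over the integrin β1 gene Itgb1 (0.25). At Itgb1 the WT libraries had 65.8, 64.8 and 61.5 and the KO libraries 106.6, 106.0 and 106.4 reads per kb, beside input of 30.6 to 30.7 and 43.0. These 3 also passed among regions of like length and without the length term. The largest H3K4me1 losses, at Csgalnact1 (−1.02), Tox3 (−0.86), 6430548M08Rik (−0.84) and Ttc29 (−0.80), were again wider KO calls, and they turned to 0.15, 0.10, 1.38 and 1.39 without the length term.

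H3K27me3 was higher at Pde4c/Rab3a (a cyclic AMP phosphodiesterase and a synaptic vesicle GTPase), with 98.0, 92.6 and 90.7 reads per kb in WT and 127, 119 and 111 in KO libraries. The change beyond input was 0.29 (SE 0.07, edgeR adjusted p = 0.032). It did not pass when any 1 of the 6 libraries was left out. The other higher region, over 2210011C24Rik and Palm3, was covered over 9600 to 13200 bp in WT but 4000 to 4400 bp in KO cells, and its change of 0.89 turned to −0.62 without the length term. H3K27me3 was lowest in KO cells at Sorbs2 (−0.70), Cdyl2 (−0.69), Cpe (−0.69) and Galnt2 (−0.66), with input differences of 0.53 to 0.59 subtracted. Without the length term Sorbs2 changed to 1.149 and Galnt2 to 0.42, while Cdyl2 (−0.15) and Cpe (−0.20) kept their sign but did not pass. At Cpe, which encodes a prohormone carboxypeptidase, the WT libraries had 49.3, 49.4 and 55.0 and the KO libraries 49.3, 49.1 and 45.2 reads per kb. The raw densities overlapped there, while input was 15.0 to 15.4 reads per kb in WT and 30.9 to 32.4 in KO cells.

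The H3K9me3 regions with the largest losses were Klhl36 (−1.06), Vat1l (−1.03), the tumour suppressor gene Wwox (−1.01) and a region in the gene model Gm20388 (−0.97), all in the distal zone. At Klhl36 the WT libraries had 70, 47.7 and 38.9 and the KO libraries 47.2, 37.9 and 34.3 reads per kb, which overlap before scaling. Wwox and Gm20388 each stayed past the threshold in 1 of 6 fits that left out a library, and without the length term Klhl36 and Vat1l changed to 0.25 and 0.37.

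H3K4me3 was tested on the highest MACS2 fold enrichment per region with limma. It was higher at 79 of 700 regions (11.3%, background 9.82%) and lower at 52 (7.43%, background 9.76%), with a median of 0.05 against −0.01 over the genome. Both shares were near the background. The largest gain was at Pcm1, which encodes a centriolar satellite protein. Its WT libraries had fold enrichments of 6.54, 4.95 and 8.89 and its KO libraries 28.9, 21.7 and 21.8, a log2 change of 1.78 (SE 0.20, limma adjusted p = 8.4e-05). Calls of 561 to 673 bp in WT and 629 to 730 bp in KO libraries were alike in length.

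Rfwd3, a ubiquitin ligase gene of the DNA damage response whose promoter holds 4 CCAAT boxes, followed with 9.66, 6.87 and 6.10 in WT and 19.1, 20.4 and 21.1 in KO libraries (1.37, SE 0.20). Ccdc194 (1.17) and Babam1/Ankle1 (1.13), of which Babam1 encodes a subunit of a BRCA1 complex, came next. The largest losses were at Atxn1l (−1.28), which encodes a partner of the Capicua repressor, at the ceramide synthase gene Cers1 (−1.13), at Mlycd (−1.11), a gene of malonyl-CoA breakdown, and at the endothelin receptor gene Ednra (−1.11). Atxn1l had fold enrichments of 17.5, 12.2 and 18.9 in WT and 8.36, 7.59 and 5.25 in KO libraries. These 8 regions were chosen among those whose groups did not overlap, and all 8 passed whichever library was left out.

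At Zfp42, H3K4me3 was raised with no overlap of the groups. The WT libraries had fold enrichments of 9.65, 7.82 and 11.1 and the KO libraries 17.8, 15.4 and 16.5, means of 9.52 ± 1.64 and 16.6 ± 1.22 (SD, n = 3). The log2 change was 0.73 (SE 0.18, limma adjusted p = 0.0074). The calls also lengthened from 5702, 6839 and 5739 bp to 9385, 10000 and 10793 bp over the gene and the 5000 bp before it.

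The enhancer marks of Zfp42 moved less than its input. Reads per kb are means over the calls that overlap the gene or its upstream sequence, which can reach beyond them. H3K27ac held 172, 185 and 150 reads per kb in WT and 171, 165 and 193 in KO libraries, overlapping groups whose means of 169 ± 17.7 and 176 ± 14.6 differ 1.04-fold, while input went from 30.6 to 44.6 reads per kb, 1.46-fold. Beyond input the change was −0.23 (SE 0.09, edgeR adjusted p = 0.12), and it was 0.22 without the input term and 0.15 without the length term, neither of which passed. Under 4 other alternatives it passed as lower in KO cells, and under 11 it stayed lower without passing. H3K4me1 held 81.2, 84.1 and 80.8 in WT and 90.2, 98.8 and 109 in KO libraries, without overlap, and the change beyond input was −0.08 (SE 0.05, edgeR adjusted p = 0.49). H3K9me3 was called over Zfp42 only in the 3 KO libraries, over 8425 ± 251 bp at 33.3 ± 2.15 reads per kb beside an input of 32.3 reads per kb. H3K27me3 was not called there in any library.

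At Klf2, H3K4me3, H3K27ac and H3K4me1 were all higher in KO cells. H3K4me3 fold enrichment was 7.11, 11.2 and 7.15 in WT and 19.04, 12.1 and 18.0 in KO libraries, a log2 change of 0.88 (SE 0.24, limma adjusted p = 0.014) that passed in 2 of the 6 fits that left out a library. The H3K27ac calls that overlap the gene and its upstream sequence held 108 ± 5.85 and 174 ± 15.1 reads per kb, 1.61-fold, where input rose 1.44-fold. They covered the same 7624 bp of that sequence in all 6 libraries. The densities are means over whole calls, in KO cells over the 101 kb described above, so they do not measure Klf2 alone. H3K4me1 held 103 ± 5.11 and 149 ± 2.18 reads per kb, 1.44-fold beside 1.39-fold for input, and the change beyond input of the 101 kb region it belongs to was 0.11 (SE 0.02, edgeR adjusted p = 0.0023). H3K27me3 was not called at Klf2 in any library.

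**Figure D5:**
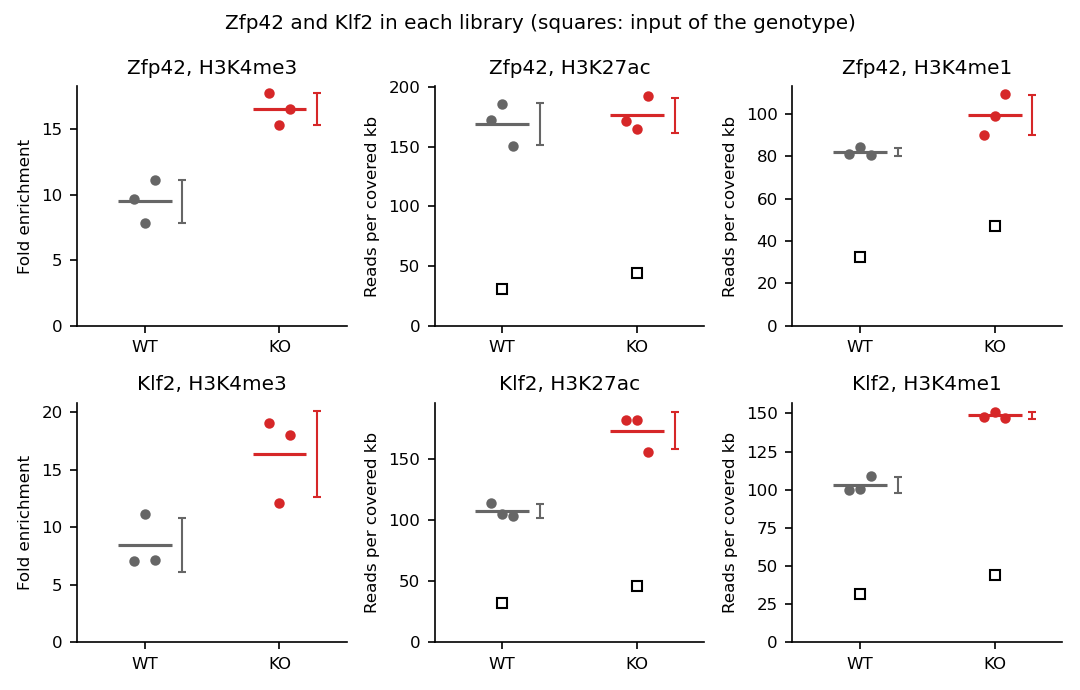
Values of Zfp42 and Klf2 by library, with 3 WT (grey) and 3 KO (red) points for H3K4me3 fold enrichment, H3K27ac reads per kb and H3K4me1 reads per kb. Open squares give the input reads per kb of each genotype where the lists hold them, and horizontal lines the means of the ChIP libraries. Reads per kb are means over the calls that overlap the gene or its upstream sequence. H3K27ac of Zfp42 overlaps between the genotypes at 150 to 193 reads per kb, and at Klf2 it lies at 103 to 114 in WT and 156 to 183 in KO libraries.

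Gene lists that lie in the stretch are given by counts, for the region of each gene that was tested, and read against all tested genes of the stretch. Of these, H3K4me3 was higher at 13.5% and lower at 7.53%, H3K27ac at 9.01% and 39.7%, and H3K4me1 at 6.21% and 32.7%. H3K27me3 was higher at 0.673% and lower at 11.4%, and H3K9me3 at 0% and 20%. Of the 9 pluripotency and early embryo genes, 8 had a tested H3K4me3 region, of which 3 rose (Klf2, Zfp42 and Fat1) and 0 fell, with a median of 0.23. Fat1, a giant protocadherin gene, had fold enrichments of 13.3, 7.12 and 12.7 in WT and 17.6, 14.1 and 22.1 in KO libraries (0.65, limma adjusted p = 0.034). In H3K27ac Klf2 rose and Fat1 (−0.21), Sall1 (−0.10), Mt1 and Mt2 (−0.20, 1 shared region) fell, of 8 tested. Fat1 was lower also without the length term (−0.10) while Sall1, Mt1 and Mt2 changed to 0.02. In H3K4me1 Triml2 (0.13) and Klf2 rose, and Fat1 (−0.27) and Cdh1 (−0.21), the E-cadherin gene, fell.

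Of the 24 developmental regulators that Polycomb commonly marks in embryonic stem cells, 19 had a tested H3K27me3 region, of which 0 rose and 5 fell. These were Zfhx3 (−0.45), Hand2 (−0.34), Foxf1 (−0.33), Foxc2 and Foxl1 (−0.25, 1 shared region), all in the proximal or distal zone. Hand2 stayed lower without the length term (−0.19, edgeR adjusted p = 0.025), whereas Foxf1, Foxc2 and Foxl1 changed to 0.16 and Zfhx3 to 1.61. The calls over Hand2 held 107.3, 116 and 120 reads per kb in the WT and 133, 146 and 128 in the KO libraries, beside input of 18.96 and 28.0. They covered the same 8651 bp of the gene and its upstream sequence, and the densities are means over whole calls. The raw density was thus higher in every KO library and the density beyond input lower. In H3K27ac 1 of 17 tested regulators rose (Gdf15, a stress cytokine, 0.19) and 12 fell, with a median of −0.29, but the median was 0.18 without the length term. Hand2 fell in H3K4me1 both ways (−0.33 and −0.25).

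Of the 24 genes of chromatin and transcription machinery, H3K4me3 rose at 6 and fell at 2. It rose at Zc3h18 (1.06), an RNA-processing factor, at the DNA-binding factors Rfx1 (0.81) and Samd1 (0.77), at Hmgb2 (0.70), Ankrd11 (0.54) and Smarca5 (0.53), the ISWI remodeller, and it fell at Sin3b (−0.83), a co-repressor scaffold, and at E2f4 (−0.67). Zc3h18 had 10.1, 9.47 and 9.15 in WT and 17.5, 21.7 and 24.2 in KO libraries. In H3K4me1 4 of 24 rose (Med26 0.24, Zc3h18 0.19, Ankrd11 0.18 and Chd9 0.08), all of them also without the length term, and 6 fell. In H3K27ac 4 rose and 9 fell.

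Of the 18 immune and NF-κB related genes, 11 had a tested H3K4me3 region, of which 1 rose and 1, the AP-1 factor gene Jund (−0.70), fell. In H3K27ac Jund rose (0.19, in 1 region with Gdf15) and 6 of 14 fell. Of these, Nod2 (−0.42), Smad1 (−0.30) and Il27ra (−0.08) were called higher without the length term. In H3K4me1 0 rose and 7 of 18 fell, and the median was −0.23 but 0.19 without the length term. Of the 8 cadherin genes, 0 of 4 tested changed in H3K4me3 and 0 of 7 in H3K27me3, and in H3K27ac 1 rose (Cdh15, 0.10) and 3 fell (Cdh8, Cdh13 and Cdh16). Of the 13 zinc-finger genes of the KRAB type, H3K4me3 rose at Zfp868 (0.62) and fell at Zfp612 (−0.79) and Zfp791 (−0.66) of 12 tested. H3K9me3 fell at Zfp930 (−0.54) and Zfp869 (−0.68) of 9 tested, and H3K27ac fell at 6 of 10, with a median of −0.35 that was 0.12 without the length term.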

How the data were processed

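ChIP-seq lists of 5 histone modifications were read for 3 WT and 3 KO libraries each, grouped by the labels. Per the methods, the authors trimmed reads with Trim Galore 0.6.6, aligned them to GRCm38 with Bowtie2 2.4.4, handled duplicates with SAMtools 1.15 and called regions per library against the input of the genotype. The aligner of H3K27ac, and the filters of H3K9me3, are not given in the sources used here. For H3K27me3, H3K9me3, H3K27ac and H3K4me1 the authors deposited epic2 lists with counts of ChIP and input reads per region (bins of 200 bp), a p-value and FDR, a log2 fold change and a score, of which the counts and FDR were used. For H3K4me3 the authors deposited MACS2 2.2.7.1 peaks with a fold enrichment ratio over input, −log10 p-values and −log10 q-values and a score. Input counts at the same coordinates differed by at most 3 reads between replicates of a genotype.

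Calls that overlapped by at least 1 bp were merged over the 6 libraries of a modification. Regions called in all 6 with a mean of at least 20 ChIP reads were compared in R 4.3.3 with edgeR 4.0.16 (quasi-likelihood test, two-sided, Benjamini-Hochberg over chromosomes 1 to 19 and X) with offsets for covered length, TMM library size and the log2 input difference of the 5 Mb window. H3K4me3 was compared with limma 3.58.1 on median-centred log2 fold enrichment, with no pseudocount. DESeq2 1.42.0 was an alternative. Genes were joined to regions that overlap them or the 5000 bp upstream. Reads per kb of a gene were taken from the whole calls that overlap this sequence, weighted by the overlapped part. They do not resolve differences within a call. Per modification the 4 regions with the largest change in each direction, among those past the threshold, without overlap of the groups and over a protein-coding gene, were named, with Zfp42, Klf2 and list members. Genes that share a region carry the same value. Other regions and genes are named as described in the text and were chosen after their values were seen. Members, zones and gene lists were chosen with earlier results of these data known. The values of a list member are not reported here, though the counts of its list include it.

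On simulated data with 100 regions changed by a log2 of 0.5 and 100 by 1, edgeR recovered 90% to 95% and 100%, and limma 12% and 85%. The limma data were simulated at the observed variances, so small H3K4me3 changes can be missed. The edgeR data were simulated at a fixed dispersion that was not estimated from the libraries. The edgeR rates therefore do not show what share of real changes was missed. Read sums per kb are raw and not scaled for depth, and their error covers counting and clone spread together. Python 3.11.15, numpy 2.4.6, pandas 2.3.3 and matplotlib 3.10.9 were used for intervals and figures.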

Additional observations from a re-analysis of the deposited data

How the results depend on the processing

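Counts below are regions that passed. Leaving out the input term turned the balance toward KO and gave 154 H3K27me3, 15 H3K9me3, 360 H3K27ac and 611 H3K4me1 regions, and leaving out the length term (chosen after seeing the data) gave 196, 135, 373 and 577, also toward KO. Regions of like length gave 19, 7, 37 and 143, where fewer regions were tested. With each region's own input in place of the window's, 185 H3K27me3 and 341 H3K9me3 regions passed, and DESeq2 gave 136 for H3K9me3, against 73 and 76. Own input raised the counts over the whole genome as well. There 1313 H3K27me3 regions were higher and 1277 lower of 18809, against 181 and 193 in the main model. For H3K9me3 3316 were higher and 3206 lower of 26959, against 79 and 205, and DESeq2 gave 188 and 375 of 18596. The causes of these last changes were not tested. Leaving out 1 library gave 281 to 352 for H3K4me1, 276 to 310 for H3K27ac, 37 to 53 for H3K27me3, 27 to 58 for H3K9me3 and 89 to 105 for H3K4me3. Without WT library 1, H3K9me3 gave 27 regions, and without KO library 3, H3K27me3 gave 37.

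The ChIP difference of the stretch less that of input was −0.20 for H3K4me1, −0.20 for H3K27ac, −0.13 for H3K27me3 and −0.24 for H3K9me3, and the H3K4me3 median fold enrichment differed by −0.03. With the other autosomes (without chromosomes 8, 2 and 12) as reference these were −0.19 for H3K4me1, −0.22 for H3K27ac and −0.16 for H3K27me3, and over regions called in all 6 libraries −0.17, −0.18 and −0.077, with 0.11 for H3K4me3. Calls with FDR under 0.01 gave −0.19 for H3K27ac and −0.19 for H3K4me1. Without the middle zone the values were −0.21, −0.22, −0.31 and −0.47 in the order given first. Over regions of like length (chosen after seeing the data) they were −0.064, −0.042, 0.036 and 0.057.

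Regions restricted to 1 genotype numbered 202 for H3K4me1, 133 for H3K27ac, 242 for H3K27me3, 89 for H3K4me3 and, for H3K9me3, 55 in KO and 52 in WT. Without the middle zone they numbered 120 for H3K4me1, 76 for H3K27ac, 45 for H3K4me3 and 60 for H3K9me3. At FDR under 0.01 the balance turned toward WT with 100 for H3K9me3 and 106 for H3K27ac. Leaving out 1 library, which loosens the rule to 2 libraries on that side, gave 236 to 317, 152 to 193, 314 to 402, 103 to 130 and 144 to 204 in the first order, and for H3K9me3 the balance turned toward WT without WT library 2 (163) or KO library 1 (182).

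Single regions turned without the length term at Palm3 (−0.62), Sorbs2 (1.149), Galnt2 (0.42), Klhl36 (0.25), Vat1l (0.37), Tarbp1 (1.203), Zfp821/Atxn1l (1.09), Mon1b (1.02), Jph3 (1.00), Csgalnact1 (0.15), Tox3 (0.10), 6430548M08Rik (1.38) and Ttc29 (1.39). Zfp42 turned without the input term (H3K27ac 0.22, H3K4me1 0.37) and without the length term (0.15 and 0.39). Of 614 values of named regions under the alternatives, 540 kept their direction and side of the threshold.

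Replicate numbers are shared by the groups but did not pair the libraries. The deviations of same-numbered WT and KO libraries from their group means correlated between −0.02 and 0.03 over regions. With the replicate number as a block, 68 H3K27me3, 64 H3K9me3, 356 H3K27ac, 421 H3K4me1 and 130 H3K4me3 regions passed. The H3K4me3 lists hold no reads, so its depth does not enter, and counting error limits the shortest calls most.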
